A study of Mus musculus with 4 samples.

Results

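Brain endothelial cells were present among CD11b-selected cells of the mouse cortex, and 911 of the 61371 kept cells met the rule by which they were chosen. Barcodes with at least 500 UMIs (unique molecular identifiers, each counting 1 captured RNA molecule) and no more than 10% of them from mitochondrial transcripts were kept. The endothelial cells were selected on measured UMI counts: a kept cell was taken as endothelial where its UMIs of Cldn5, Flt1 and Ly6c1 summed to at least 5 and P2ry12, the ADP receptor of microglia, made up less than 0.15% of its UMIs. They therefore stood out in those 4 genes by choice. These genes stayed in the fits and counts over all genes, but no test of them is read as a result. The Hevin animals had received adeno-associated virus carrying Hevin, the secreted matricellular protein encoded by Sparcl1, and the controls the same kind of virus carrying mCherry, a fluorescent protein. Both transgenes had the astrocyte promoter GfaABC1D, so neither was aimed at endothelial cells. All mice were wild type, were injected into the cortex on postnatal day 0 or 1 and were taken on day 15, and all tissue was dissociated with actinomycin D, triptolide and anisomycin, which block transcription and translation. Each group had 2 PIPseq libraries (PIPseq partitions cells with barcoded beads in an emulsion). The number of animals behind each library is not stated, so p-values measure the spread between these libraries, which may be technical.

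Endothelial cells line the inside of blood vessels. In the brain their tight junctions, low rate of vesicle transport and dense set of nutrient carriers and drug pumps form the blood-brain barrier, which Wnt signals from neural cells switch on through Fzd4, Lrp5 and Lrp6. Along a vessel they differ by position: arterial cells rely on Notch and ephrin signals, capillary cells hold most of the carriers, venous cells are the main site where leukocytes attach, and tip cells lead growing sprouts. Pericytes and smooth muscle, together called mural cells, wrap the outside of the tube. Endothelial cells do not make CD11b, the integrin used for the selection.

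Of the genes that chose the cells, Cldn5 (chr16:18776847-18778262, plus strand of mm10) encodes the main claudin of brain tight junctions, Flt1 (chr5:147561604-147726011, minus strand) a receptor for VEGF, and Ly6c1 (chr15:75044018-75048830, minus strand) a surface protein held by a lipid anchor. Ly6c1 needs a check of its own, because the neighbouring Ly6c2 is its near copy and is known as the Ly6C gene of monocytes. Their coding sequences are shown because reads from most of their length could come from either gene: each coding sequence has 396 bases in 3 exons, and 9 of them differ (97.7% identity). The first 300 bases, which hold 7 of the differences, were read from the annotated mm10 transcripts, Ly6c1 at chr15:75045402-75048511 and Ly6c2 at chr15:75108543-75111667, both on the minus strand, and capitals mark the differing bases.
Ly6c1: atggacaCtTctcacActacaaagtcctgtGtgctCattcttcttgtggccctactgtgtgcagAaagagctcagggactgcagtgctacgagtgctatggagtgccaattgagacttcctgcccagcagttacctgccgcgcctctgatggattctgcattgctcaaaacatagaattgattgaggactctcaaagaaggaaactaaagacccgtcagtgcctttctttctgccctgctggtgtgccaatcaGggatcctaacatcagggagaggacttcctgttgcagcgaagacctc
Ly6c2: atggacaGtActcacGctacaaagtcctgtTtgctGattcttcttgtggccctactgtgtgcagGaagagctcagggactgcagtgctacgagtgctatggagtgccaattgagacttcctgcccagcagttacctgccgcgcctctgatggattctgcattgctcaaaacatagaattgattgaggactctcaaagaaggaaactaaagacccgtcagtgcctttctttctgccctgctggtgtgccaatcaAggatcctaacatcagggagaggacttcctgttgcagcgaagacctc
Levels are in CPM, the UMIs of a gene scaled to a common total of all UMIs. In endothelial cells Ly6c1 stood at 2542 and 3096 CPM in the Hevin libraries, against 2287 and 2699 CPM in the mCherry libraries. Ly6c2 stood at 84.6 and 92.3 CPM in the Hevin libraries, against 68.7 and 80.6 CPM in the mCherry libraries. Relative to Ly6c1 by UMIs, Ly6c2 was thus 3.33% and 2.98% in the Hevin libraries, and 3.01% and 2.99% in the mCherry libraries, a near-constant share. In the other kept cells, where both genes were scarce, it was 9.56% and 10.1% in the Hevin libraries, and 7.95% and 16.6% in the mCherry libraries. The rule that chose the endothelial cells counts Ly6c1 UMIs, so it acts on this share in both kinds of cell. The shares of endothelial and other cells are thus given as values only, and nothing is read from their difference. How reads shared by both genes were assigned is not given in the sources used here, so the Ly6c2 values are uncertain.

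The endothelial cells numbered 286 and 155 in the Hevin libraries, and 287 and 183 in the mCherry libraries. They made up 1.46% (95% exact Clopper-Pearson interval 1.29 to 1.63) and 1.19% (1.01 to 1.39) of kept cells in the Hevin libraries, against 1.61% (1.43 to 1.80) and 1.69% (1.45 to 1.95) in the mCherry libraries. The mean was 1.32% ± 0.188 for Hevin and 1.65% ± 0.0547 for mCherry (SD, n = 2 each), and the Hevin libraries were both lower. An exact two-sided permutation test gave p = 0.333, the smallest value that 2 libraries against 2 allow. The CD11b selection sets how many endothelial cells remain, so these are shares of a selected pool and not of the cortex. The depth at which deposited barcodes began also differed, with lowest totals among the other kept cells of 965 and 2178 UMIs in the Hevin libraries and 2038 and 2993 UMIs in the mCherry libraries. The sign depended on depth and on the P2ry12 limit. With cells thinned to 2000 UMIs, which left 11803 of 19653 cells in Hevin library 1 and every cell of the other libraries, the Hevin mean exceeded the mCherry mean by 0.0805 percentage points, and among cells with at least 3000 UMIs by 0.261 points. With P2ry12 below 0.05% the shares were 1.05% and 1.04% in the Hevin libraries, against 0.376% and 0.664% in the mCherry libraries.

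**Figure D1:**
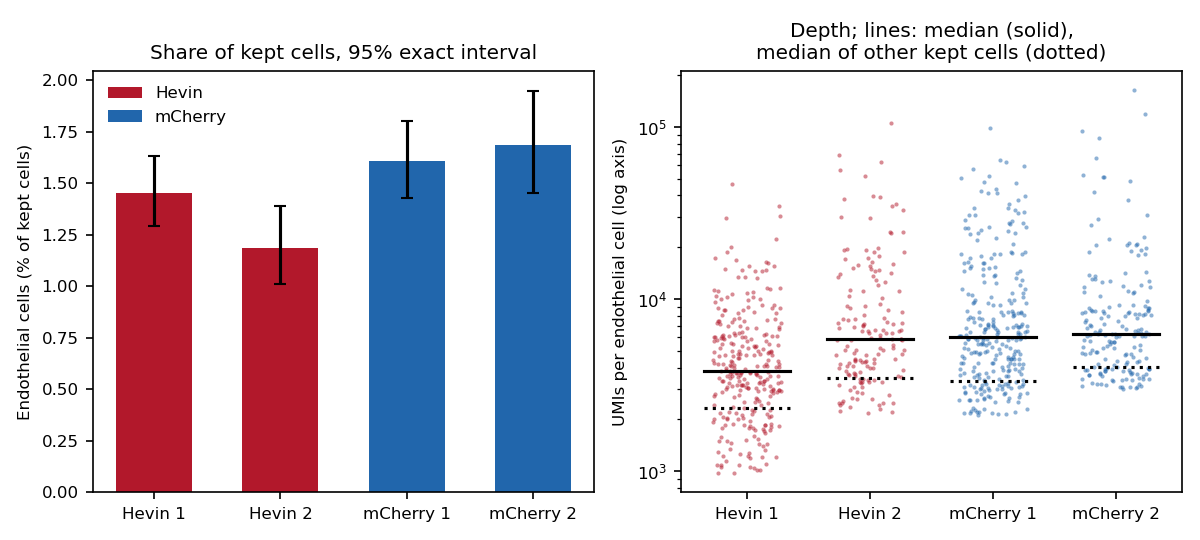
Left, endothelial cells as a percent of kept cells in each library, with 95% exact intervals for counting error: both Hevin bars (1.46% and 1.19%) lie below both mCherry bars (1.61% and 1.69%). Right, UMIs of each endothelial cell on a log axis, with its library's endothelial median as a solid line and the median of other kept cells dotted: the endothelial median is lowest in Hevin library 1 (3838.5 UMIs) and exceeds the dotted line in all 4 libraries.

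Few cells within the P2ry12 limit lay close to the threshold on the 3 markers, and that limit removed more cells in the mCherry libraries. Kept cells with 1 to 4 marker UMIs, all below the threshold, numbered 2846 and 1654 in the Hevin libraries, and 4580 and 1779 in the mCherry libraries. The endothelial cells held a median of 38 and 67 marker UMIs in the Hevin libraries, and 55 and 66 in the mCherry libraries. Just inside the threshold, with 5 marker UMIs, lay 5 and 1 cells in the Hevin libraries, and 2 and 0 in the mCherry libraries. Just outside it, with 4 and P2ry12 below 0.15%, lay 10 and 2 cells in the Hevin libraries, and 3 and 2 in the mCherry libraries. Few cells within the P2ry12 limit thus sat at the marker threshold. The P2ry12 limit removed 8 and 5 cells that had the markers in the Hevin libraries, and 41 and 18 in the mCherry libraries. Between 0.10% and 0.15% P2ry12, inside the limit, were 15 and 3 cells in the Hevin libraries, and 64 and 15 in the mCherry libraries. Between 0.15% and 0.20%, outside it, were 4 and 2 cells in the Hevin libraries, and 18 and 4 in the mCherry libraries. No doublet caller was run, and the P2ry12 limit served as the filter against endothelial cells caught with microglia.

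The endothelial cells were deeper than the rest in every library. Their median was 3838.5 and 5865 UMIs in the Hevin libraries, and 6002 and 6304 UMIs in the mCherry libraries. The other kept cells had medians of 2318 and 3481 UMIs in the Hevin libraries, and 3338 and 4026 UMIs in the mCherry libraries. Summed over cells, 1548126 and 1668816 endothelial UMIs were available in the Hevin libraries, and 3084405 and 2145804 in the mCherry libraries. Cells with at least 20000 UMIs gave 10.6% and 41.8% of them in the Hevin libraries, and 47.9% and 48.8% in the mCherry libraries, so Hevin library 1 stood apart. Libraries shared between 1 and 7 barcodes in pairs, and 0 endothelial ones. The libraries also differed in the sexes they held: Xist, the RNA that silences an X chromosome in females, was at 1.29 and 696 CPM in the Hevin libraries, against 330.0 and 672 CPM in the mCherry libraries, and the Y-linked Ddx3y at 151 and 72.5 CPM in the Hevin libraries, against 124 and 62.9 CPM in the mCherry libraries. Hevin library 1 was thus almost free of Xist.

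The cells carried the wider endothelial programme. All 21 genes of a pan-endothelial list that left out the 3 chosen markers were detected. Their summed level was 10535 and 12187 CPM in the Hevin libraries, against 10383 and 11282 CPM in the mCherry libraries. In the other kept cells the same sum was 398 and 429 CPM in the Hevin libraries, against 832 and 732 CPM in the mCherry libraries. Pecam1 (chr11:106654217-106750628, minus strand), the adhesion molecule CD31, had at least 1 UMI in 66.4% and 83.2% of endothelial cells in the Hevin libraries, and 80.1% and 88.0% in the mCherry libraries. Set beside them were cells bearing P2ry12, those with P2ry12 at or above 0.15% of UMIs and under 5 marker UMIs. There the share was 3.41% and 7.05% of cells in the Hevin libraries, and 9.28% and 11.6% in the mCherry libraries. How much of this free RNA gives was not tested. Kdr (chr5:75932827-75978458, minus strand), the main VEGF receptor, was found in 82.2% and 91.0% of endothelial cells in the Hevin libraries, and 87.5% and 93.4% in the mCherry libraries, and in 1.46% and 1.72% of P2ry12-bearing cells in the Hevin libraries, and 3.09% and 2.14% in the mCherry libraries. The median depth of P2ry12-bearing cells was 2078 and 3302 UMIs in the Hevin libraries, and 3290 and 3969 UMIs in the mCherry libraries, below that of endothelial cells.

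The barrier genes were part of that programme. Slc2a1 (chr4:119108711-119137983, plus strand), the glucose carrier GLUT1, was detected in 95.1% and 97.4% of endothelial cells in the Hevin libraries, and 97.2% and 99.5% in the mCherry libraries, and in 7.86% and 10.9% of P2ry12-bearing cells in the Hevin libraries, and 15.5% and 15.0% in the mCherry libraries. Mfsd2a (chr4:122946850-122961188, minus strand), a lipid carrier that holds down vesicle transport across the barrier, was detected in 78.3% and 88.4% of endothelial cells in the Hevin libraries, and 85.7% and 84.7% in the mCherry libraries, and in 1.16% and 0.944% of P2ry12-bearing cells in the Hevin libraries, and 2.68% and 1.24% in the mCherry libraries. Plvap (chr8:71497765-71511752, minus strand), a protein of the fenestrae and leaky vessels that barrier endothelium lacks, was scarce: 1.05% and 1.29% of endothelial cells in the Hevin libraries, and 1.05% and 1.64% in the mCherry libraries held a UMI. In P2ry12-bearing cells its share was 0.400% and 0.555% of cells in the Hevin libraries, and 0.918% and 0.990% in the mCherry libraries.

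**Figure D2:**
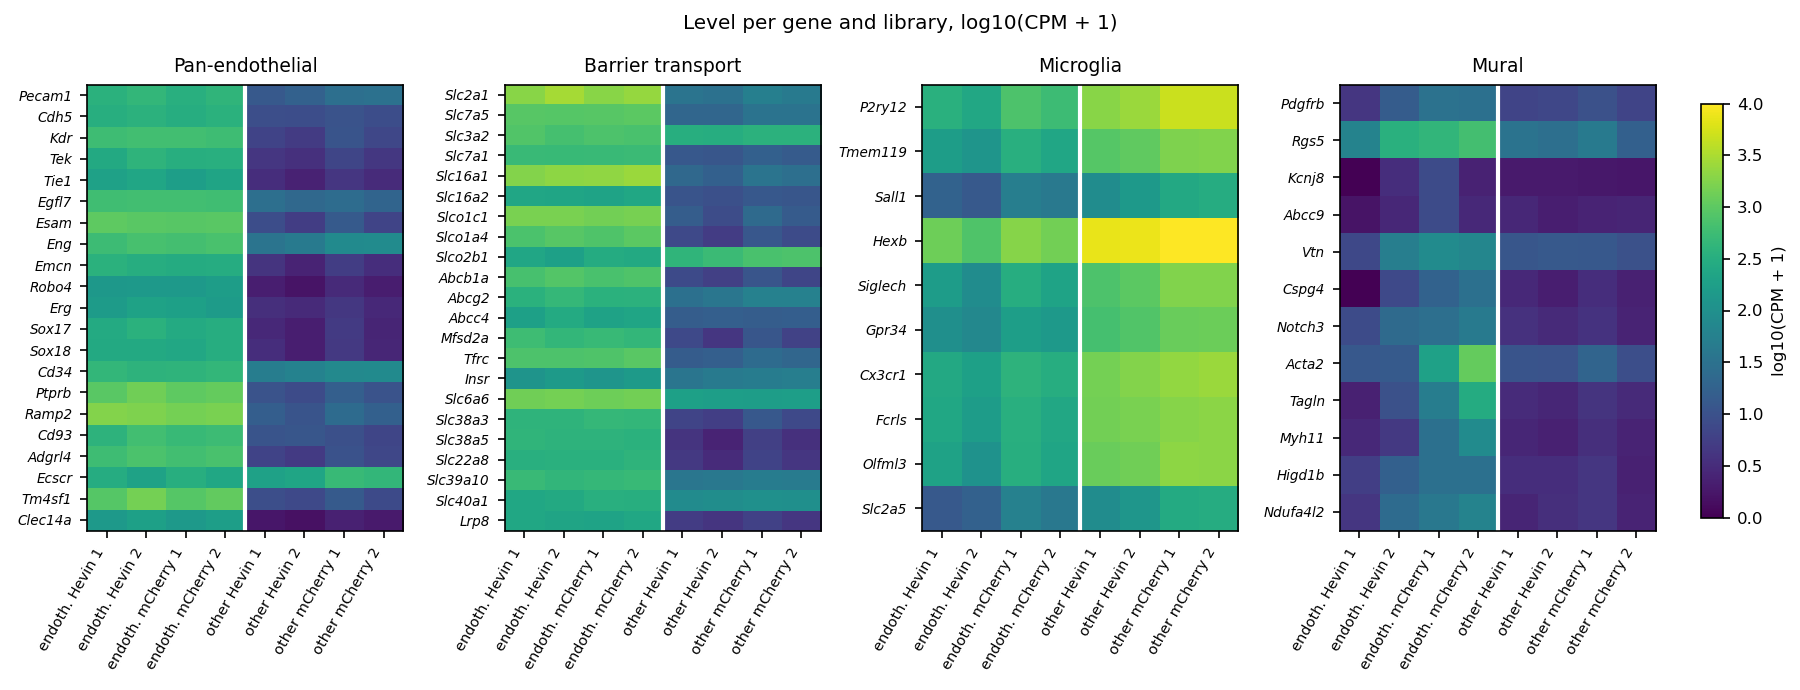
Level of each gene of 4 lists, as log10(CPM + 1) on a colour scale, with the 4 endothelial pools left of the white line and the other kept cells right of it, Hevin libraries before mCherry libraries. Pan-endothelial and barrier transport genes are mostly higher in endothelial pools (pan-endothelial sum 10535 and 12187 CPM in the Hevin libraries, 10383 and 11282 CPM in the mCherry libraries), microglia genes higher in the other cells, and the mural genes Acta2, Tagln and Myh11 highest in the mCherry endothelial pools.

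Markers of other cell types were low apart from those of microglia and other myeloid cells, mural cells and, in 1 library, red blood cells. The 10 microglia markers summed to 2789 and 1809 CPM in the Hevin libraries, against 4615 and 3411 CPM in the mCherry libraries, which was 17.6% and 9.96% of their level in other kept cells in the Hevin libraries, and 16.8% and 12.1% in the mCherry libraries. The 10 myeloid markers summed to 17.3% and 9.88% of their level in other cells in the Hevin libraries, and 18.5% and 13.3% in the mCherry libraries. The 12 mural markers summed to 101 and 513 CPM in the Hevin libraries, against 944 and 2387 CPM in the mCherry libraries. Markers of red blood cells summed to 5.17 and 1.20 CPM in the Hevin libraries, against 8183 and 21.4 CPM in the mCherry libraries. Astrocyte markers summed to 175 and 117 CPM in the Hevin libraries, against 249.6 and 144 CPM in the mCherry libraries, and those of neurons to 28.4 and 21.6 CPM in the Hevin libraries, against 43.1 and 26.6 CPM in the mCherry libraries. Sele, Igtp, Nkg7 and Ms4a1 were at 0 UMIs in the endothelial cells of every library.

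Clustering of the endothelial cells on genes at least as high in them as in other cells gave 7 clusters, of which 5 could be named from the listed markers. Cluster 1 (264 cells) was capillary-like, with all 7 capillary markers present and led by Cxcl12, a chemokine. Cluster 2 (192 cells) stayed unnamed: 5 of 7 capillary and 3 of 9 venous markers were present, its 10 leading genes held 1 of each, and they exceeded the rest by at most 2.01-fold. Cd74 led it, and the myeloid lysozyme gene Lyz2 was also among the 10. Its myeloid markers summed to 6757 CPM, the most of the 7 clusters. Cluster 3 (188 cells) was arterial-like, with 6 of 11 markers, among them the kinase gene Bmx, and was led by genes that include Unc5b, a guidance receptor. It also held 3 of 7 capillary markers. Cluster 4 (119 cells) was tip-like: it held 3 of 7 markers, Apln, Adm and Angpt2, secreted signals of sprouting vessels, and all 3 were among its 10 leading genes, while 6 of 7 capillary markers were present too. Cluster 5 (103 cells) was venous-like, with 6 of 9 markers and led by Il1r1, the receptor of interleukin-1, and it also held 11 of 12 markers of dividing cells. It held 4 of 7 capillary markers too, and the capillary markers Slc16a1 (3556 CPM) and Tfrc (1099 CPM) were highest in it. Its median of 15053 UMIs was well above that of the endothelial cells of each library. At the finer resolution of 1.0, a cluster of 63 cells held 6 of 9 venous and 0 of 12 dividing-cell markers. Another of 30 cells held 12 of 12 dividing-cell and 6 of 9 venous markers. Cluster 7 (17 cells) was arterial-like with 11 of 11 markers, and the elastic-fibre gene Eln and the secreted Gkn3 were among its leading genes. Cluster 6 (28 cells) also stayed unnamed: 12 of 12 mural markers and 8 of 11 arterial markers were present beside 13 of 21 pan-endothelial ones, and smooth muscle actin, Acta2, led it.

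Barrier genes varied between the clusters. Mfsd2a stood at 803 CPM in cluster 1 and 796 CPM in cluster 3, against 278 CPM in the venous-like cluster 5 and 22.9 CPM in the arterial-like cluster 7. It is also among the capillary markers by which cluster 1 was named, so its levels are given as values only. Slc2a1 was highest in cluster 3, at 3259 CPM, and lowest in the tip-like cluster 4, at 959 CPM. Sparcl1, the mouse gene for Hevin itself, stood at 1308 CPM in cluster 1 and 1566 CPM in cluster 4, against 520.2 CPM in cluster 2 and 511 CPM in cluster 5. It stood at 1335 CPM in cluster 6, the one with mural genes, and 1114 CPM in cluster 7.

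Each cluster held cells of all 4 libraries. The capillary-like cluster 1 made up 28.7% and 22.6% of endothelial cells in the Hevin libraries, and 30.3% and 32.8% in the mCherry libraries. The arterial-like cluster 3 made up 22.0% and 23.9% in the Hevin libraries, and 19.2% and 18.03% in the mCherry libraries, and the Hevin values were both higher. The tip-like cluster 4 made up 11.9% and 10.3% in the Hevin libraries, and 14.6% and 14.8% in the mCherry libraries, and the Hevin values were both lower. At the coarser resolution of 0.3 its shares were 8.04% and 6.45% in the Hevin libraries, and 11.1% and 7.65% in the mCherry libraries, which overlapped. The venous-like cluster 5 made up 9.79% and 16.8% in the Hevin libraries, and 9.76% and 11.5% in the mCherry libraries, which overlapped. With 2 libraries a group no exact permutation test of these shares can fall below p = 0.333.

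**Figure D3:**
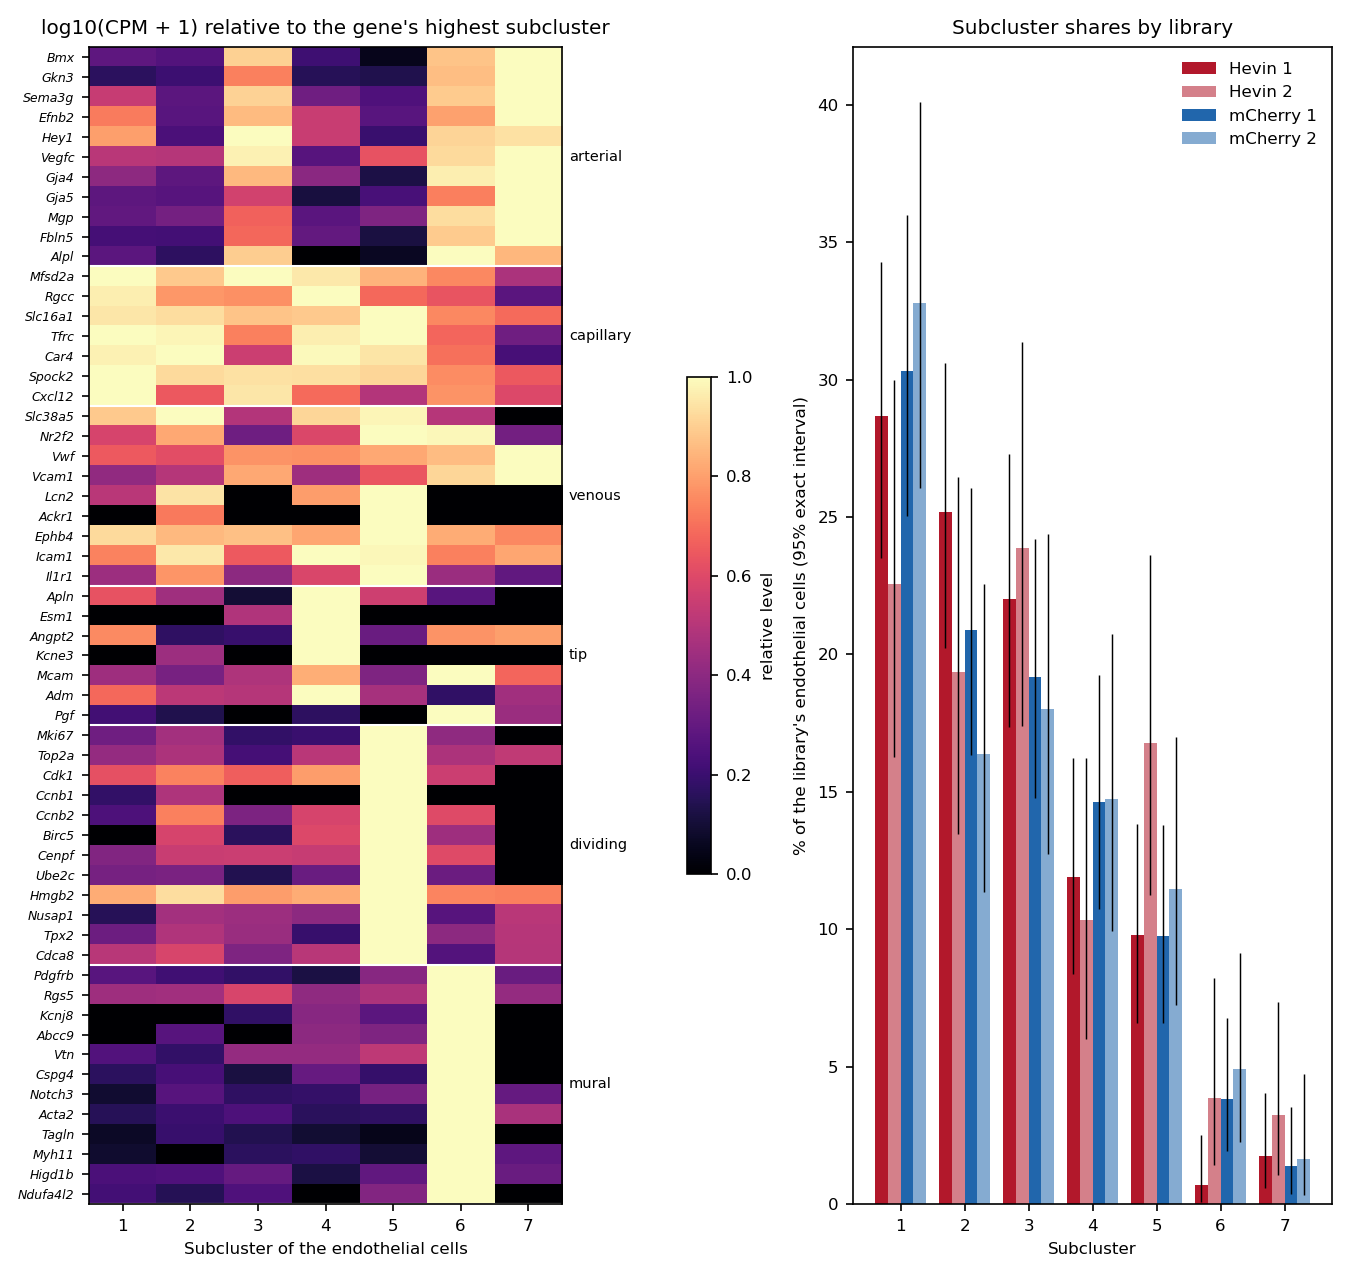
Left, level of each vessel-position, dividing-cell and mural marker in the 7 clusters, as log10(CPM + 1) relative to the gene's highest cluster: the 12 mural markers all peak in cluster 6. Right, share of each library's endothelial cells in each cluster, in percent, with 95% exact intervals for counting error: clusters 1, 4 and 6 average lower in the Hevin libraries (differences of -5.92, -3.59 and -2.09 percentage points) and clusters 2, 3, 5 and 7 higher (3.62, 4.35, 2.67 and 0.970 points).

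Between Hevin and mCherry libraries no gene in endothelial cells passed the threshold. Counts were summed over the endothelial cells of each library and tested with edgeR's quasi-likelihood test, and 0 of 10982 genes (0%) had a Benjamini-Hochberg adjusted p below 0.05. At an unadjusted p below 0.05, 222 genes were higher (2.02%) and 419 lower (3.82%), together 5.84%. DESeq2, run on the same sums, called 30 genes (0.273%), 9 higher and 21 lower, of which 29 were genes the rule had not used. Left out in turn, Hevin libraries 1 and 2 gave 187 and 168 called genes and mCherry libraries 1 and 2 gave 84 and 32, with at most 2 in any list of endothelial function or vessel position. The median log2 difference over all genes apart from those that chose the cells was 7.22e-05, and 9759 of 10978 lay within 0.5 of 0. All CPM from here on that stand beside a test are scaled by edgeR's TMM factors, and log2 differences are Hevin minus mCherry, with their standard error.

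The barrier carriers held no called gene. Of the 22 carriers and pumps 0 passed, the median log2 difference was 0.06, and all 22 lay within 0.5. Slc2a1 was at 2001 and 2919 CPM in the Hevin libraries, against 1968 and 2284 CPM in the mCherry libraries, a log2 difference of 0.21 ± 0.16 (95% interval -0.15 to 0.57), and it was called without Hevin library 1 (log2 difference 0.46). Mfsd2a was at 602 and 443 CPM in the Hevin libraries, against 489 and 440.3 CPM in the mCherry libraries, and the groups overlapped, with a log2 difference of 0.17 ± 0.16 (95% interval -0.19 to 0.53). Abcb1a, the drug pump P-glycoprotein, was at 705 and 876 CPM in the Hevin libraries, against 707 and 771 CPM in the mCherry libraries (95% interval -0.21 to 0.40 on the log2 scale). Slc7a5, the carrier of large neutral amino acids, was at 963 and 885 CPM in the Hevin libraries, against 912 and 959.7 CPM in the mCherry libraries (95% interval -0.27 to 0.23). For each of these 4 the interval lay inside a log2 difference of 1 in either direction. The lowest unadjusted p in the list belonged to Slco2b1, an organic anion carrier, at 240.2 and 188 CPM in the Hevin libraries, against 288 and 268 CPM in the mCherry libraries (log2 difference -0.38 ± 0.15, unadjusted p = 0.0333). Slc40a1, the iron exporter ferroportin, was at 256 and 271 CPM in the Hevin libraries, against 337 and 319 CPM in the mCherry libraries (log2 difference -0.32 ± 0.13, unadjusted p = 0.0348). For both, the Hevin libraries lay below the mCherry libraries, and neither passed adjustment. By an exact two-sided permutation test, groups of 2 and 2 libraries without overlap reach only p = 0.333. Such an order is thus not read as a result, here or below.

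The junction genes gave 0 of 10 called, with a median log2 difference of -0.03. Ocln, which encodes occludin, was at 201 and 265 CPM in the Hevin libraries, against 211 and 246 CPM in the mCherry libraries (log2 difference 0.03 ± 0.16, 95% interval -0.34 to 0.41). Lsr, the protein of junctions where 3 cells meet, was at 534 and 506 CPM in the Hevin libraries, against 479 and 473 CPM in the mCherry libraries (95% interval -0.14 to 0.39). Cdh5 (chr8:104101625-104144511, plus strand), the adherens junction cadherin, was at 340.1 and 377 CPM in the Hevin libraries, against 309.8 and 357 CPM in the mCherry libraries (log2 difference 0.11 ± 0.14). Among these 3 the Hevin libraries lay above the mCherry libraries for Lsr and overlapped them for Ocln and Cdh5. Jam3, a scarce junction adhesion molecule, had the widest difference in the list, -0.62 ± 0.42 (95% interval -1.56 to 0.33), on 8.10 and 6.68 CPM in the Hevin libraries, against 8.42 and 14.8 CPM in the mCherry libraries.

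The Wnt pathway that keeps the barrier gave 0 of 19 called, a median log2 difference of -0.07, and all 19 within 0.5. The transcription factor gene Lef1 was at 202 and 219 CPM in the Hevin libraries, against 223 and 219 CPM in the mCherry libraries (log2 difference -0.07 ± 0.13). The feedback inhibitor Apcdd1 was at 1180.2 and 1052 CPM in the Hevin libraries, against 1200.5 and 1266 CPM in the mCherry libraries (log2 difference -0.14 ± 0.11). A pair of members had an unadjusted p below 0.05. The inhibitor Nkd1 was at 246 and 239 CPM in the Hevin libraries, against 287 and 323 CPM in the mCherry libraries (log2 difference -0.33 ± 0.13, unadjusted p = 0.032). The co-receptor Lrp5 was at 52.6 and 53.4 CPM in the Hevin libraries, against 74.1 and 63.8 CPM in the mCherry libraries (log2 difference -0.38 ± 0.16, unadjusted p = 0.0421). Both lay lower in the Hevin libraries, and neither passed adjustment.

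**Figure D4:**
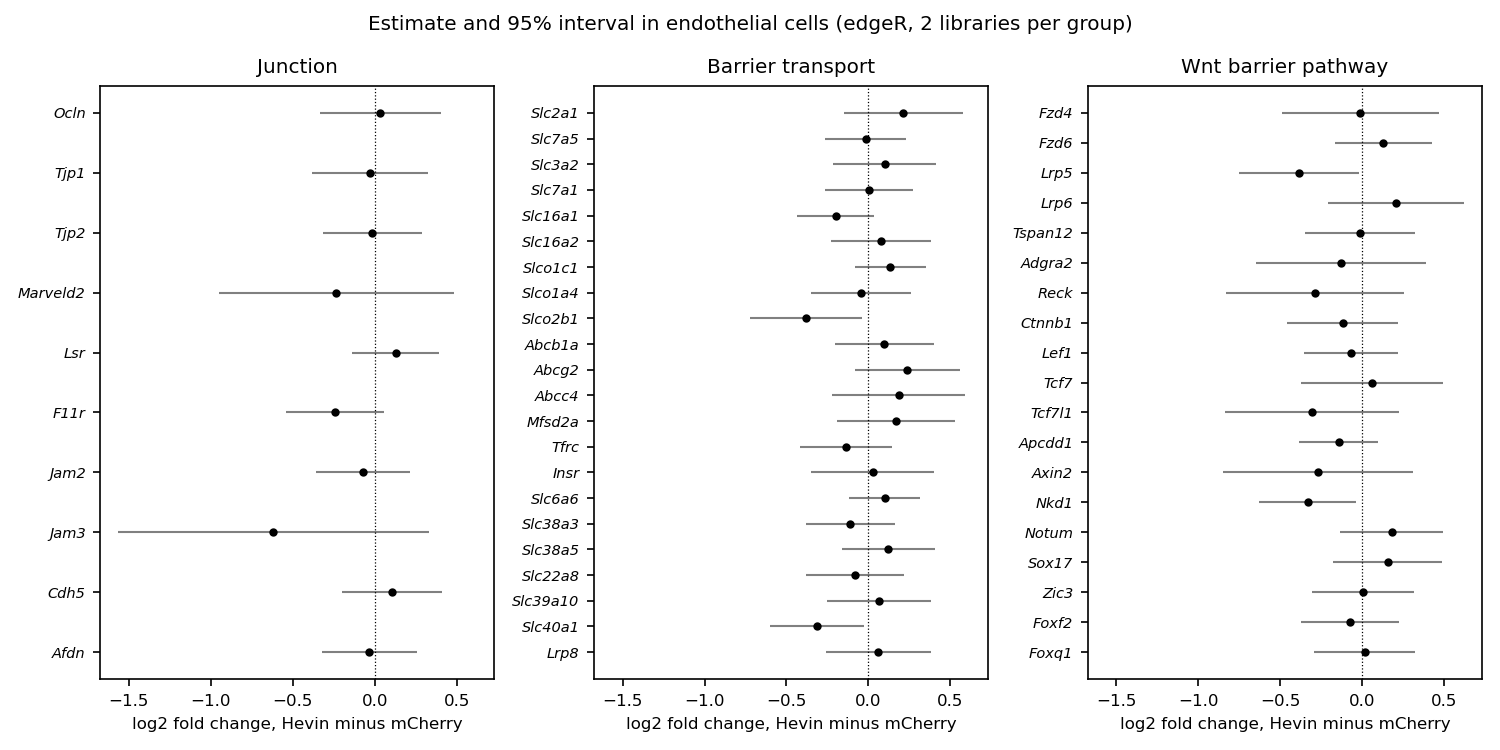
Log2 difference (Hevin minus mCherry) of junction, barrier transport and Wnt pathway genes in endothelial cells, as points with 95% intervals from edgeR and a dotted line at 0. None of the 10, 22 and 19 genes passed an adjusted p of 0.05, and the list medians were -0.03, 0.06 and -0.07.

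The growth factor pathways gave the same count of 0. Among 13 VEGF and angiopoietin genes the median log2 difference was -0.03, and Kdr was at 589 and 622 CPM in the Hevin libraries, against 615 and 567 CPM in the mCherry libraries (log2 difference 0.03 ± 0.12). Angpt2, a ligand released by sprouting cells, was at 33.7 and 25.5 CPM in the Hevin libraries, against 37.9 and 48.6 CPM in the mCherry libraries (log2 difference -0.54 ± 0.22, unadjusted p = 0.0377). It belongs also to the 5 tested tip markers, whose median was -0.54 and of which 0 passed. Mcam, listed as a tip marker, was at 29.7 and 29.2 CPM in the Hevin libraries, against 49.5 and 84.2 CPM in the mCherry libraries (log2 difference -1.16 ± 0.27, unadjusted p = 0.00205), and it was called without Hevin library 1, Hevin library 2 or mCherry library 1, but its highest level, 329 CPM, was in cluster 6 with the mural genes, against 123 CPM in the tip-like cluster 4. Among 11 Notch genes, ligands, receptors and targets, the median was 0.17. The receptor gene Notch4 was at 106 and 137 CPM in the Hevin libraries, against 89.7 and 109.6 CPM in the mCherry libraries (log2 difference 0.29 ± 0.17), and the arterial target Efnb2 at 30.4 and 43.7 CPM in the Hevin libraries, against 18.8 and 26.8 CPM in the mCherry libraries (log2 difference 0.73 ± 0.26, unadjusted p = 0.0203). The Notch targets Hey2 and Heyl were lower in the Hevin libraries at an unadjusted p below 0.05 (0.0149 and 0.00368), Heyl was called without Hevin library 2, and both were highest in cluster 6. The 11 BMP and TGF-beta genes had a median of 0.10 and the 5 genes that answer to blood flow, among them Klf2 and Klf4, one of 0.01, with 0 called in each.

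Of the 15 basement membrane genes 0 passed, with a median of -0.03. They include Sparcl1 (chr5:104079111-104113733, minus strand), which encodes the same protein as the virus, and its relative Sparc (chr11:55394500-55423183, minus strand). Sparcl1 was at 966 and 788 CPM in the Hevin libraries, against 799.7 and 1020.3 CPM in the mCherry libraries, and the groups overlapped (log2 difference -0.05 ± 0.15, 95% interval -0.39 to 0.29, adjusted p = 0.993). Whether reads from the viral transcript count towards Sparcl1 is not given in the sources used here. Its sign turned without Hevin library 2 (0.096), without mCherry library 2 (0.13) and without cluster 6 (0.074). Sparc was at 8555 and 7516 CPM in the Hevin libraries, against 7839 and 8131 CPM in the mCherry libraries (log2 difference 0.01 ± 0.07, 95% interval -0.15 to 0.17).

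Vessel position and adhesion lists also gave 0 called. The median log2 difference was 0.02 for 7 capillary genes, 0.23 for 11 arterial genes, 0.12 for 9 venous genes, 0.04 for 9 genes of leukocyte adhesion and 0.05 for 7 genes of fenestrae and caveolae. Of the pan-endothelial genes, 1 of 21 had an unadjusted p below 0.05, Ramp2, a partner of the adrenomedullin receptor, at 1867 and 1693 CPM in the Hevin libraries, against 1439.7 and 1550.3 CPM in the mCherry libraries (log2 difference 0.25 ± 0.10, unadjusted p = 0.0322). The 11 tested genes of dividing cells had a median of 0.12, the 12 immediate early genes 0.21, the 10 glycolysis genes -0.04 and the 13 cholesterol genes -0.16. None of these lists held a gene past adjustment.

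The genes named for the smallest unadjusted p-values were mostly macrophage, microglial or mural genes. None passed adjustment. The 6 border macrophage markers had a median log2 difference of -0.08 and the 10 myeloid markers one of -0.21, with 0 called in each. Apoe (chr7:19696109-19699188, minus strand), the lipid carrier that marks activated macrophages, was at 4075 and 2432 CPM in the Hevin libraries, against 1048 and 829 CPM in the mCherry libraries, a log2 difference of 1.79 ± 0.22 with an adjusted p of 0.0668. In the other kept cells Apoe was at 22479 and 19013 CPM in the Hevin libraries, against 2904 and 2664 CPM in the mCherry libraries, and its level in endothelial cells was 17.4% and 12.6% of that in the Hevin libraries, and 36.1% and 31.3% in the mCherry libraries. Of 9 listed markers of Apoe-high macrophages 5 were tested. All 5 were higher in the Hevin endothelial cells at an unadjusted p below 0.05, with a median of 1.79. All 5 were called higher in the other cells, with a median of 3.12. The low-count filter can keep a gene through the Hevin libraries alone, so this count is also given as values only. Ms4a6c, a membrane protein of monocytes and macrophages, was at 136 and 58.9 CPM in the Hevin libraries, against 22.7 and 23.6 CPM in the mCherry libraries (log2 difference 2.07 ± 0.35, adjusted p = 0.126). Ccl12, a chemokine that attracts monocytes, was at 121 and 75.9 CPM in the Hevin libraries, against 44.0 and 30.5 CPM in the mCherry libraries (log2 difference 1.38 ± 0.25, adjusted p = 0.163). Cd52, a surface protein of leukocytes, had a log2 difference of 1.14 ± 0.22 (adjusted p = 0.199). In each of these genes the endothelial level was below that of the other cells in every library, and the Hevin libraries exceeded the mCherry libraries in both kinds of cell.

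Microglial genes ran the other way in both kinds of cell. All 9 tested microglia markers other than P2ry12 were lower in Hevin endothelial cells at an unadjusted p below 0.05, with a median of -0.80, against -0.65 in the other cells, where 7 were called lower. Of all genes apart from those of the rule, 418 of 10978 were lower at that level in endothelial cells. The P2ry12 limit also acts on cells that hold other microglial RNA, so the count of 9 is given as values only. Crybb1, a lens crystallin gene used as a marker of immature microglia, was at 66.1 and 59.5 CPM in the Hevin libraries, against 169 and 138 CPM in the mCherry libraries (log2 difference -1.30 ± 0.16, adjusted p = 0.0668). In the other cells it was at 337 and 477 CPM in the Hevin libraries, against 797 and 876 CPM in the mCherry libraries. Ckb, the brain-type creatine kinase, was at 104 and 85.0 CPM in the Hevin libraries, against 196 and 182 CPM in the mCherry libraries (log2 difference -1.004 ± 0.15, adjusted p = 0.103). Tanc2, which encodes a scaffold protein, was at 74.9 and 74.1 CPM in the Hevin libraries, against 137 and 123 CPM in the mCherry libraries (log2 difference -0.80 ± 0.14, adjusted p = 0.144). For the ribosomal gene Rplp1 the values were 3193 and 3113 CPM in the Hevin libraries, against 2089.8 and 2291 CPM in the mCherry libraries (log2 difference 0.53 ± 0.09, adjusted p = 0.103), and its other-cell log2 difference was 0.93. The median gene of the microglia list stood at 17.7% and 10.1% of its level in other cells in the Hevin libraries, and 17.9% and 12.3% in the mCherry libraries, all well below the level in the cells they mark. Of all genes, 10982 were tested, and 6197 in the fit kept to genes at least as high in endothelial as in other cells. A lower level was thus common, and whether it was more so among called genes was not tested. Of the 29 genes DESeq2 called apart from P2ry12, 12 were not lower in level and were highest in the cluster with mural genes. All 12 were lower in the Hevin libraries, and 1 further gene was of neither class. The other 16 were lower in level than in other cells, 9 higher and 7 lower in the Hevin libraries. The named genes of this kind were called in at least 2 of the 4 fits that left out 1 library, and Apoe, Ms4a6c and Crybb1 in all 4 of them. How far free RNA or microglia caught with endothelial cells enters these differences was not tested.

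Mural genes were the other kind. Of 12 listed mural markers 10 were tested, and all 10 were lower in the Hevin libraries at an unadjusted p below 0.05. Their median was -1.77, while in the other kept cells it was -0.14. Mural UMIs numbered 157 and 856 in the Hevin libraries, and 2912 and 5123 in the mCherry libraries. The low-count filter can keep a gene through the mCherry libraries alone, so the count of 10 is given as values only. Acta2 (chr19:34241090-34255590, minus strand), smooth muscle actin, was at 12.1 and 12.8 CPM in the Hevin libraries, against 193 and 1113 CPM in the mCherry libraries (log2 difference -5.70 ± 0.81, adjusted p = 0.1). Tpm2, a tropomyosin of smooth muscle, was at 2.70 and 11.5 CPM in the Hevin libraries, against 46.9 and 146 CPM in the mCherry libraries (log2 difference -3.68 ± 0.67, adjusted p = 0.163). Rgs5, the pericyte regulator of G-protein signals, was at 64.1 and 355 CPM in the Hevin libraries, against 429.6 and 631 CPM in the mCherry libraries (log2 difference -1.33 ± 0.56), lowest by far in Hevin library 1. It was called without Hevin library 2 or without mCherry library 1. Acta2 and Tpm2 were called whichever library was left out. The UMIs came from few cells. Cluster 6 held 2 and 6 cells in the Hevin libraries, and 11 and 9 in the mCherry libraries, and of all mural UMIs in endothelial cells it held 58.0% and 92.1% in the Hevin libraries, and 87.3% and 95.2% in the mCherry libraries. Its cells had a median of 4044 and 8322 UMIs in the Hevin libraries, and 17202 and 26767 UMIs in the mCherry libraries, against 3838.5 and 5820 UMIs for the remaining endothelial cells of the Hevin libraries, and 5912 and 6212 UMIs of the mCherry libraries. Whether these are mural cells caught with endothelial cells was not tested. In the sums, fewer such cells and less mural RNA per cell cannot be told apart. Without cluster 6, edgeR called 14 genes, 8 higher and 6 lower, and 1 mural marker, Rgs5, was among them. The 6 fibroblast markers summed to 18.1 and 53.9 CPM in the Hevin libraries, against 104 and 92.3 CPM in the mCherry libraries, lower in both Hevin libraries.

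Haemoglobin RNA was a matter of 1 library. Haemoglobin UMIs in endothelial cells numbered 8 and 2 in the Hevin libraries, and 25183 and 46 in the mCherry libraries. All 9 cells with at least 50 of them were in mCherry library 1, and 3 cells held 85.2%.

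In the other kept cells the same contrast had 1297 of 18899 genes higher (6.86%) and 761 lower (4.03%), so the difference of the Hevin effect between endothelial and other cells was tested itself, as an interaction in edgeR with the library as a block. It passed an adjusted p of 0.05 for 119 of 18552 genes (0.641%): 41 with the more positive effect in endothelial cells (0.221%) and 78 with the more negative one (0.42%). The split depended on scaling, and was 42 and 48 with relative log expression factors and 40 and 35 with total counts alone. Of the 41 with a more positive effect, all were called lower in the other cells, 36 were higher in level in endothelial cells than in other cells, and all 41 lay within 0.5 of 0 in endothelial cells, where their median log2 difference was 0.03, against -1.01 in the other cells. Of the 77 with a more negative effect that were tested in both, 72 were called in the other cells, with a median there of 1.16, and 64 lay within 0.5 of 0 in endothelial cells, where the median was 0.08. Of all genes tested in endothelial cells apart from those of the rule, 9759 of 10978 also lay within 0.5 of 0. Most genes called for the difference were called in the other cells. That they lay near 0 in endothelial cells is not read as a result about them. Without Hevin library 1 the count was 345, without mCherry library 1 it was 221 and without mCherry library 2 it was 272.

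Sparc was 1 of these genes. Against its near-equal levels in endothelial cells given above, it was in other cells at 3920.1 and 4964 CPM in the Hevin libraries, against 9515 and 9805 CPM in the mCherry libraries (log2 difference -1.01, adjusted p = 0.00557). The difference of the effects was 0.999 ± 0.14 (adjusted p = 0.00668), and it stayed called in 16 of 18 alternatives. Sparc is also made by microglia, and the level in the other cells is that of a mixed pool.

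Of the interferon genes, 3 of the 20 in the test of the difference were called, Bst2, Isg15 and Rtp4, and each had the more negative effect in endothelial cells. Of 21 listed, 18 were tested in endothelial cells and 0 were called, with a median log2 difference of 0.20, while 13 were called higher in the other cells, where the median was 0.82. Bst2, the antiviral tether protein, stood in endothelial cells at 435 and 367 CPM in the Hevin libraries, against 238 and 279 CPM in the mCherry libraries (log2 difference 0.63 ± 0.15, unadjusted p = 0.00188, adjusted p = 0.308), and it was called without Hevin library 2. In other cells it was at 1269 and 1014 CPM in the Hevin libraries, against 238 and 238 CPM in the mCherry libraries (log2 difference 2.37), so both kinds of cell were higher with Hevin and the other cells by more. The difference of the effects was -1.76 ± 0.14 (adjusted p = 0.000362), and it was called in all 18 alternatives. Isg15, an interferon-induced ubiquitin-like protein, stood in endothelial cells at 103 and 86.8 CPM in the Hevin libraries, against 84.8 and 84.2 CPM in the mCherry libraries, and in other cells at 36.4 and 32.7 CPM in the Hevin libraries, against 19.2 and 19.1 CPM in the mCherry libraries, a difference of effects of -0.82 ± 0.15 (adjusted p = 0.036). For Rtp4, an interferon-induced chaperone of receptors, it was -1.02 ± 0.20 (adjusted p = 0.0423). Isg15 kept the call in 6 of 18 alternatives and lost it without Hevin library 2 (or either mCherry library), and Rtp4 also kept it in 6 and lost it without Hevin library 1 or either mCherry library. Among the 11 tested MHC class I genes 0 were called in endothelial cells (median 0.19) and 7 were called higher in other cells (median 0.41), but 1 of 13, H2-K1, was called for the difference itself. H2-K1, a class I heavy chain, stood in endothelial cells at 432 and 363 CPM in the Hevin libraries, against 263 and 340.4 CPM in the mCherry libraries, and in other cells at 941 and 782 CPM in the Hevin libraries, against 392 and 420.4 CPM in the mCherry libraries, a difference of effects of -0.81 ± 0.15 (adjusted p = 0.0279). That call was lost without mCherry library 2.

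Of the endothelial lists, 2 of 21 pan-endothelial, 1 of 10 junction and 1 of 22 barrier transport genes were called with the more positive effect, and 0 with the more negative one. Pecam1 stood in endothelial cells at 367 and 458 CPM in the Hevin libraries, against 335 and 408 CPM in the mCherry libraries, and in other cells at 12.04 and 16.2 CPM in the Hevin libraries, against 28.1 and 29.6 CPM in the mCherry libraries, a difference of effects of 1.06 ± 0.16 (adjusted p = 0.0119). Eng, a co-receptor of BMP9, had a difference of 0.91 ± 0.15 (adjusted p = 0.0174), Jam2, a junction adhesion molecule, 1.19 ± 0.18 (adjusted p = 0.0113), and the drug pump gene Abcg2 0.90 ± 0.15 (adjusted p = 0.0212). Jag1, a Notch ligand, and Vcam1, a leukocyte adhesion molecule, were called the other way, at -1.96 ± 0.35 (adjusted p = 0.0307) and -1.86 ± 0.33 (adjusted p = 0.0252). In each of the first 4 the endothelial log2 difference lay within 0.5 of 0 and the other-cell value was negative. Of the genes named for size, Notch4 had a difference of effects of 1.39 ± 0.17 (adjusted p = 0.00276) with 3.68 and 4.54 CPM in the Hevin libraries, against 9.38 and 10.1 CPM in the mCherry libraries in other cells, and Gimap1, a GTPase of the immune-associated family, 1.69 ± 0.22 (adjusted p = 0.00451). In the opposite direction Col14a1, a fibril-associated collagen, stood in endothelial cells at 4.05 and 15.2 CPM in the Hevin libraries, against 12.6 and 13.9 CPM in the mCherry libraries, and in other cells at 26.0 and 24.3 CPM in the Hevin libraries, against 3.13 and 3.601 CPM in the mCherry libraries, a difference of effects of -3.48 ± 0.45 (adjusted p = 0.00436). Crispld2, a secreted protein gene, had 0 and 1 UMIs in the Hevin endothelial pools, against 54 and 165 UMIs in the mCherry pools, and it was highest in cluster 6.

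**Figure D5:**
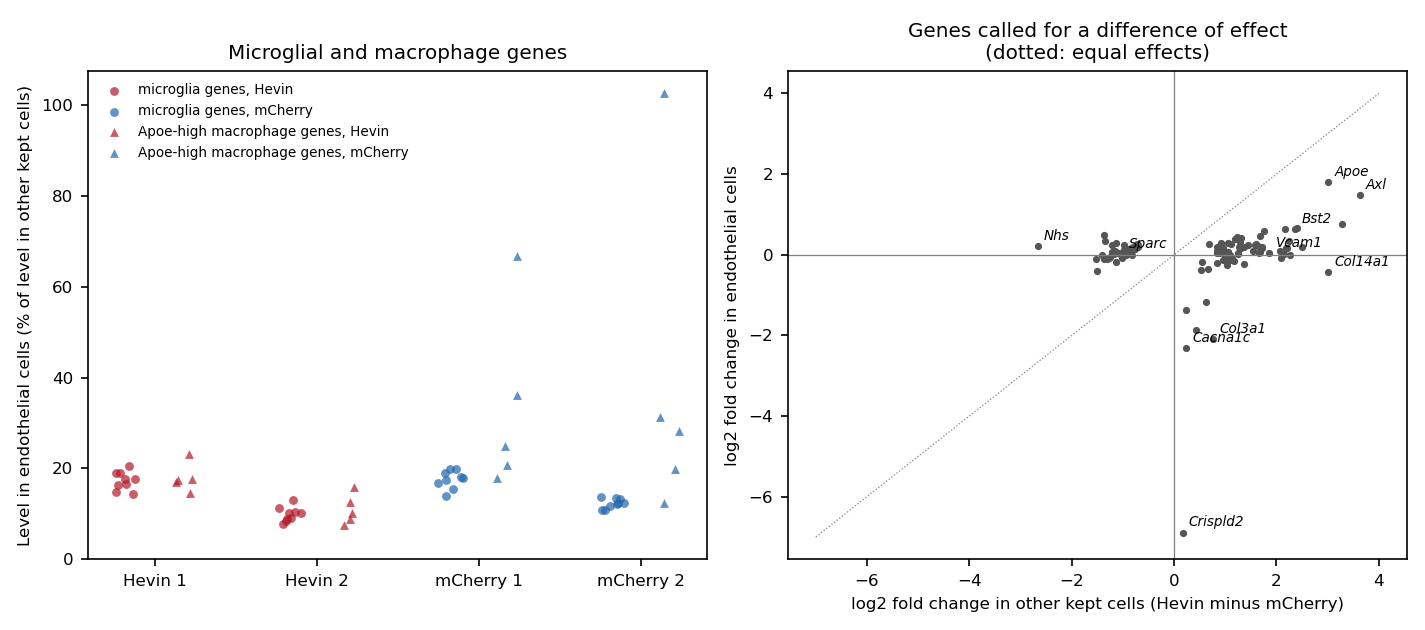
Left, level of 9 microglia genes (circles) and 5 Apoe-high macrophage genes (triangles) in the endothelial cells of each library, as a percent of their level in the other kept cells: the microglia medians are 17.7% and 10.1% in the Hevin libraries and 17.9% and 12.3% in the mCherry libraries, and Axl, whose level was highest in cluster 6, is the highest triangle in both mCherry libraries. Right, for genes called for a difference of effect and tested in both kinds of cell, the log2 difference (Hevin minus mCherry) in endothelial cells against that in other kept cells: most points lie near 0 on the endothelial axis, Apoe and Axl lie high on both axes, and Crispld2 is the lowest.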

How the data were processed

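Each of the 4 libraries holds polyA RNA, made with PIPseq v4.0PLUS from at most 40000 loaded cells, per the labels. The authors deposited unnormalized UMI counts, whole numbers for every gene in every barcode. The submitters' processing notes name mm10 as the genome build. Alignment, counting, gene models, use of strand and cell calling: not given in the sources used here. Coordinates and the Ly6c sequences came from a GENCODE annotation of mm10, in which all 526 genes of interest matched.

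Counts were summed per library over endothelial and over other kept cells. The sums were tested in R 4.3.3 with edgeR 4.0.16, by its quasi-likelihood test with TMM factors, edgeR's own filter on low counts and no covariate, and with DESeq2 1.42.0 as an alternative. The interaction test used both sums with the library as a block. The scripts were tested on simulated data. Subclustering used scanpy 1.11.5 and Leiden (leidenalg 0.10.2) with 1000 variable genes, 15 components, 15 neighbours and resolution 0.5. Markers were present in a cluster if they reached 20 CPM and 40% of their highest cluster. CPM without a test beside them are scaled to the cells' total alone. Intervals of shares cover counting error only. Replicates differed beyond the noise of drawing single UMIs (chi-square per gene 3.91 in the Hevin pair and 5.21 in the mCherry pair). UMIs of the same cell are not independent draws, so this does not separate the libraries from the drawing of cells.

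Members and gene lists were chosen with earlier results of these data known. Genes were named by size of change among those past the threshold, if they reached 10 CPM and the groups did not overlap, at most 10 each way (5 for the interaction). Where none passed, the 5 of smallest p each way that reached 50 CPM are given as values only. Alternatives varied scaling, filters, marker and P2ry12 thresholds, depth, the replicate block and single libraries. Cd99 and Aldoa matched no symbol in the files and were left out.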

Additional observations from a re-analysis of the deposited data

Results flagged for a closer look

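Each gene below was singled out because the Hevin effect differed between endothelial cells and the other kept cells by the test of the difference itself (edgeR interaction, library as a block). Each value is the log2 effect in endothelial cells minus that in other cells. A pair of fitted values is given without reading anything from it. Crispld2 (-7.09) had 1 UMI in the Hevin endothelial pools and passed the filter through the group where it is high, and B3gnt8 (-4.00) passed through the other cells alone. The other genes named for size were Col14a1 (-3.48), Col3a1 (-2.87), Cacna1c (-2.63), Nhs (2.79), Tmem263 (1.83), Gimap1 (1.69), Klk8 (1.42) and Notch4 (1.39). Cacna1c was called in 6 of 18 alternatives (range -3.35 to -0.46), not without Hevin library 1, and Col3a1 in 9 of 18 (range -4.61 to -1.46). Within the endothelial cells Col3a1 stood at 190 CPM in cluster 6, the one with mural genes, and at no more than 4.58 CPM in any other cluster.

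Among vessel genes the values were Pecam1 1.06, Eng 0.91, Jam2 1.19, Abcg2 0.90, Fzd4 0.90, Jag2 0.95, Jag1 -1.96, Vcam1 -1.86 and Sparc 0.999. Fzd4 and Jag2 were not called without Hevin library 2 or without mCherry library 1. Among interferon and MHC class I genes they were Bst2 -1.76, Isg15 -0.82, Rtp4 -1.02 and H2-K1 -0.81. Among genes of Apoe-high macrophages and cholesterol export they were Apoe -1.28, Axl -2.18 and Abca1 -0.76, and Abca1 lost the call whichever library was left out. Within the endothelial cells Axl was highest in cluster 6, the one with mural genes, at 92.6 CPM, followed by cluster 7 at 41.3 CPM. Jag1 and Vcam1 were highest in cluster 7, at 463 and 394 CPM, followed by cluster 6 at 315 and 238 CPM. Pecam1, Eng, Jam2, Abcg2, Jag1, Vcam1, Sparc, Bst2, Apoe and Axl kept the call whichever library was left out.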

How the results depend on the processing

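The count of 0 genes in endothelial cells stayed 0 with relative log expression factors, with total counts, at 10 CPM or more, at 3 or at 10 marker UMIs, with P2ry12 below 0.05%, with Cldn5 and Flt1 both required, and among cells of at least 3000 UMIs. DESeq2 called 30, no filter on low counts 256 and the fit with a replicate block 130 (26 higher, 104 lower). Leaving out 1 library called between 32 (mCherry library 2) and 187 (Hevin library 1), with a lone sample assumed to vary like the rest. Keeping cells with at most 1% myeloid UMIs gave 6. Of alternatives chosen after seeing the data, no P2ry12 limit gave 15, deep cells thinned to 3000 UMIs gave 16, cells outside cluster 6 gave 14, and genes at least as high in endothelial cells gave 1 of 6197. The cause was not tested.

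The difference of effects (119 genes) gave 75 with total counts, 71 with DESeq2, 438 without a filter, 15 at 10 CPM or more, 28 at 3 marker UMIs, 429 with P2ry12 below 0.05%, 66 at 3000 UMIs, 252 with deep cells thinned, and between 166 and 345 without 1 library. The share of endothelial cells turned to higher in Hevin by 0.522 points with P2ry12 below 0.05%, 0.261 at 3000 UMIs and 0.0805 after thinning to 2000 UMIs, and was -0.484 without a P2ry12 limit, also added later. At clustering resolution 0.3 the tip-like difference was -2.15 points, and cluster 5 had no value of its own: the cluster then led by Il1r1, with 6 of 9 venous and 11 of 12 dividing-cell markers, drew more of its cells from cluster 2 than from any other. Sparcl1 ranged between -0.22 and 0.13 without 1 library, and was 0.074 without cluster 6. Libraries of the same number deviated together (r = 0.325 over 6958 genes), but the labels tie nothing to the number. The number of libraries limits every test, and the log2 difference of a gene such as Crispld2 rests on few UMIs in the Hevin endothelial pools.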
